A study of Mus musculus with 4 samples.

Results

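The semaphorins are a family of guidance proteins, and the plexins and neuropilins are their receptors. The 31 genes described here are the 20 semaphorins, 9 plexins and 2 neuropilins named in the deposited table, chosen by gene name from its 22770 genes. All 31 had a row. The samples were cerebral cortex from mouse embryos at embryonic day 16.5, 2 libraries from Pax6 sey/sey mutants and 2 from wild-type littermates, all on a mixed C57BL/6J, 129S6 and CD1 background. Pax6 is a transcription factor of cortical progenitor cells, sey is its small eye allele, and sey/sey embryos carry it on both chromosomes in every cell, not in cortex alone. The labels do not say whether a library came from 1 embryo or from several, so p-values measure the spread between these libraries, which may be technical in part.

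Semaphorins of class 3 are secreted, those of classes 4 to 6 span the membrane and class 7 is held there by a lipid anchor. Plexins carry the signal into the cell, where it loosens adhesion and the cytoskeleton and turns growing axons and migrating neurons. Most class 3 semaphorins need neuropilins, which bind the ligand but signal through plexins of type A, while the membrane-bound classes bind plexins directly. In embryonic cortex these proteins are known for guiding callosal and corticofugal axons and for keeping migrating interneurons on their route.

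Values are FPKM, fragments of a gene divided by its exon length and by the size of the library, so that levels of different genes can be set beside each other. A gene was tested if at least 2 libraries reached 0.5 FPKM, which held for 28 of the 31 members and 15399 genes in all. Fold changes are differences of log2(FPKM + 0.5), the mutant mean less the wild-type mean. The added 0.5 shrinks the changes of scarce genes. A gene is said to have risen or fallen only at a limma adjusted p under 0.05 over all tested genes. The 95% intervals are not adjusted for the number of genes tested. An interval can therefore leave out 0 for a gene that did not pass. FPKM totals lay between 579698 and 593256, and 13682 to 13875 genes reached 1 FPKM in each library. Low values placed the sequencing depth of the mutant libraries at 0.865 and 1.19, and that of wild-type library 2 at 0.785, relative to wild-type library 1. Pax6 RNA itself was 101 and 120 FPKM in the mutants and 28.8 and 27.0 FPKM in the wild types. The sey allele is a point change that leaves a transcript, so this level does not check the genotype. Mutant library 1 had 350 FPKM of Xist, the RNA of the inactive X chromosome, against 0.131 FPKM in mutant library 2 and at most 0.224 FPKM in the wild types, and sex therefore differed among the libraries.

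Of the family, 4 members changed. The receptor genes Nrp2 and Plxnb2 rose in Pax6 mutant cortex, and the secreted ligand gene Sema3c and the receptor gene Plxna4 fell. The tissue was sequenced whole, so fewer cells of a type and less RNA per cell cannot be told apart in these values. These 4 are 14.3% of the 28 tested members, beside 3.48% of all tested genes. The 2 that rose stand beside 2.02% of all genes and the 2 that fell beside 1.46%. The median log2 fold change of the tested members was 0.04 and that of all tested genes 0.00, while the median size of the change without its sign was 0.24 in the family and 0.17 over all genes. Both mutant libraries lay outside the range of the wild types for 18 of the 28 members, 9 above and 9 below, which is 64.3% beside 51.6% of all tested genes. At an unadjusted p under 0.05 there were 11 members, 4 higher and 7 lower, which is 39.3% beside 19.5% of all genes.

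**Figure D1:**
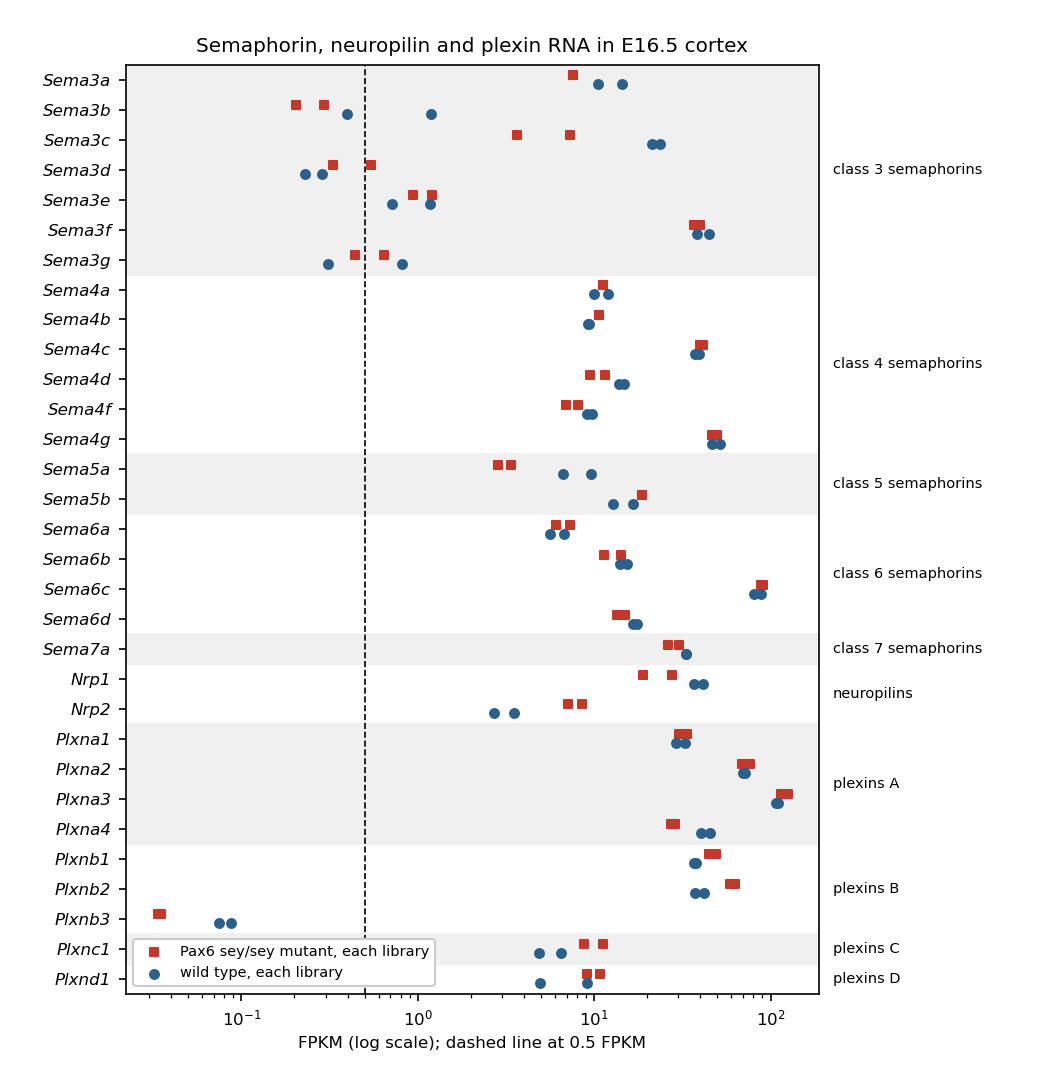
FPKM of all 31 members on a log axis in each of the 4 libraries, with Pax6 sey/sey mutants as squares and wild types as circles and the members grouped by class. Plxna3 lies highest, at 108 to 125 FPKM, Plxnb3 lowest, at 0.0335 to 0.0869 FPKM, and the mutant squares of Sema3c and Nrp2 stand clear of the wild-type circles.

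The 300 bases around the start site of the changed members are shown so that the genes behind these values can be read: 250 bases before and 50 after the start, from the RefSeq table on GRCm38.p6, 5′ to 3′ on the gene's own strand. The table held 37 such windows for 26 of the 31 members, with no entry for Plxna4, Plxna1, Sema3b, Sema3f or Sema6a. Nrp1 is shown beside Nrp2 because these 2 receptors differed in direction. Capitals mark CAGATG, the E-box form bound by proneural factors, TAATTA, the core bound by many homeodomain factors, and GGGCGG, the GC box, on either strand.
Sema3c at chr5:17574566-17574865, plus strand: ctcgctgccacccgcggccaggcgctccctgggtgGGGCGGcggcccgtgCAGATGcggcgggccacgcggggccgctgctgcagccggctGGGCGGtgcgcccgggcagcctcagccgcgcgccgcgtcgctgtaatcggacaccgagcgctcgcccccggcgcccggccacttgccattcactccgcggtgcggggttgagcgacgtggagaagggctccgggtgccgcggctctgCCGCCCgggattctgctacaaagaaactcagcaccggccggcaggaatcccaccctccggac
Nrp2 at chr1:62703067-62703366, plus strand: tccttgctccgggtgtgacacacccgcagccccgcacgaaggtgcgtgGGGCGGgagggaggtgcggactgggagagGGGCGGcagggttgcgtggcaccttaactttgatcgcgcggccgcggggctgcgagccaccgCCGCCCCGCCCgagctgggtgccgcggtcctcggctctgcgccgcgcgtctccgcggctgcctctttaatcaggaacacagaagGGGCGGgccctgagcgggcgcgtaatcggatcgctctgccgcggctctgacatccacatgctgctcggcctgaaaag
Nrp1 at chr8:128358823-128359122, plus strand: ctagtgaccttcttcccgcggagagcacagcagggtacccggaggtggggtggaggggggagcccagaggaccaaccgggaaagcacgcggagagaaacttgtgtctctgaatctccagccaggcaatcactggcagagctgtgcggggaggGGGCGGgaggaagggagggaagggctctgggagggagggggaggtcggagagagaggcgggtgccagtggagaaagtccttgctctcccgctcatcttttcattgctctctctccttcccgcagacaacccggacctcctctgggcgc
Plxnb2, upstream start, at chr15:89180739-89181038, minus strand: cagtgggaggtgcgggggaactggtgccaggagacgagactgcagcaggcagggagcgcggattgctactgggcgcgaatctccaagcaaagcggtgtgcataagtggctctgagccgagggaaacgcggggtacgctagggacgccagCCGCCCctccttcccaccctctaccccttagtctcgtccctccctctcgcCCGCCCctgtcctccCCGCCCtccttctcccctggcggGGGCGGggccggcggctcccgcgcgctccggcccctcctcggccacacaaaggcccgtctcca
Plxnb2, downstream start, at chr15:89173902-89174201, minus strand: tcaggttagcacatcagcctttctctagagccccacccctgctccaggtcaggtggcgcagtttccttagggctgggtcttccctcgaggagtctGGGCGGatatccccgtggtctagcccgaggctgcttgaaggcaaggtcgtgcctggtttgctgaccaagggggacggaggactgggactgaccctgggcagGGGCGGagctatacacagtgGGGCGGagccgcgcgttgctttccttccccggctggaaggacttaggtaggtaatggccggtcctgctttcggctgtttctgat

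The Sema3c window holds 1 CAGATG, 200 bases before the RefSeq start, and 3 GC boxes. The Nrp2 window holds 5 GC boxes and the Nrp1 window 1. The upstream Plxnb2 window holds 4 and the downstream one 3. In GENCODE M21 Sema3c begins at 17574281 and Nrp1 at 128358604, upstream of their printed windows. Both windows therefore lie inside the gene as annotated there, and distances from the start depend on the annotation. CAGATG was in 2 of the 37 family windows (5.41%), in Sema3c and Sema4a, beside 17.2% of all 32851 windows. TAATTA was in 0 of 37 beside 5.29% of all, and TATAAA, searched as the TATA box on both strands, in 0 beside 13.6%. GGGCGG was in 27 of 37 (73.0%) beside 35.7% of all. In the Nrp2 window 2 of the GC boxes share a base, and no other motifs overlap in the printed windows. The family windows were rich in G and C, with a median of 63.7% beside 52.7% over all windows, and the ratio of CpG found to CpG expected was 0.58 beside 0.38. The Sema3c window had 75.7% G and C and Nrp2 70.7%, while Sema3a had 41.3%. Such matches are letters in a window and no measure of binding.

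Among the secreted ligands, Sema3c fell and the more abundant Sema3f did not pass the test. Sema3c, a ligand of both neuropilins known for attracting callosal axons, was 7.26 and 3.67 FPKM in the mutant libraries, against 23.7 and 21.4 FPKM in the wild types. Each mutant library lay far below each wild type, and the mutants differed more from each other than the wild types did. The means were 5.47 ± 2.54 FPKM in mutants and 22.5 ± 1.63 FPKM in wild types (SD, n = 2 each), and Sema3c fell by 2.01 on the log2 scale (SE 0.30, limma adjusted p = 0.0400). In the authors' deposited table its ratio of mutant to wild type was 0.243 with a p of 0.00233. Sema3c lies on chromosome 5 from 17574281 to 17730268 on the plus strand in GRCm38, and no other annotated gene overlaps it.

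Sema3f, which repels through neuropilin 2, was 39.6 and 36.7 FPKM in the mutants, against 38.4 and 45.0 FPKM in the wild types. The genotypes overlapped, with a log2 fold change of -0.13 and a 95% interval of -0.38 to 0.13. Sema3a, the classical repellent that acts through neuropilin 1, was 7.62 and 7.57 FPKM in the mutants, against 14.4 and 10.6 FPKM in the wild types. Both mutants lay below both wild types, but the change of -0.67 did not pass (95% interval -1.11 to -0.23, limma adjusted p = 0.127).

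The remaining class 3 ligands were scarce. Sema3e, which binds plexin D1 without a neuropilin, was 1.20 and 0.941 FPKM in mutants and 1.17 and 0.710 FPKM in wild types. Sema3g, known from vessels, was 0.647 and 0.442 FPKM in mutants and 0.309 and 0.810 FPKM in wild types. Sema3b and Sema3d stayed under the filter: Sema3b was 0.295 and 0.205 FPKM in mutants against 1.18 and 0.398 FPKM in wild types, and Sema3d 0.331 and 0.546 FPKM against 0.230 and 0.286 FPKM. Scaled to 1 kb of exon, the most frequent low value in a library, about 1 fragment, was 0.0915 to 0.139 FPKM.

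As a class, the secreted semaphorins summed to 57.0 and 50.04 FPKM in the mutants, against 79.4 and 79.1 FPKM in the wild types. The genotypes did not overlap, with p = 0.33 in an exact permutation test (two-sided), which is the lowest p that 2 libraries a group can reach for any class. Sema3c made up 12.8% and 7.34% of the class sum in the mutants and 29.8% and 27.0% in the wild types. Sema3f made up 69.5% and 73.3% in the mutants and 48.4% and 56.9% in the wild types. Sema3d, Sema3a, Sema3e and Sema3c lie on chromosome 5 in this order from 12383385 to 17730268, with Sema3e ending at 14256689 and Sema3c starting at 17574281. Of the 3 tested, which leave out Sema3d, Sema3c passed and Sema3a and Sema3e did not.

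**Figure D2:**
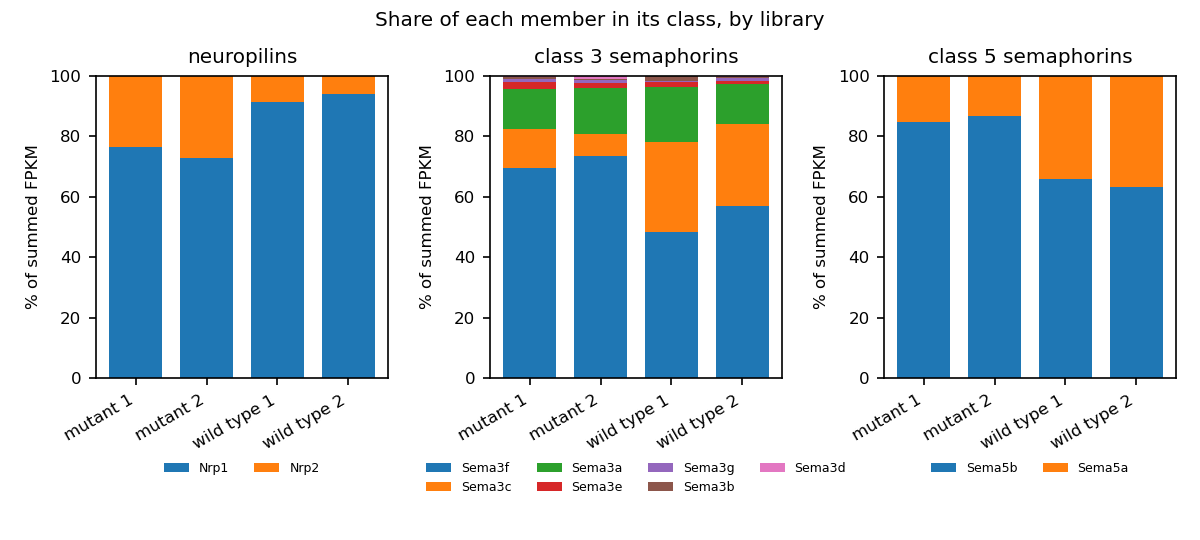
Share of each member in the summed FPKM of its class, in percent, for neuropilins, class 3 and class 5 semaphorins, with mutant libraries left of wild types and 1 bar a library. Nrp2 takes 23.6% and 27.2% of neuropilin FPKM in mutants against 8.79% and 6.18% in wild types, and Sema5a 15.3% and 13.4% against 34.2% and 36.8%.

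Class 4 semaphorins had 0 of 6 members past the limma threshold, beside 3.48% of all tested genes. At an unadjusted p under 0.05 was 1 of the 6, beside 19.5% of all tested genes. Sema4g was 46.8 and 49.4 FPKM in mutants and 46.4 and 51.5 FPKM in wild types, and Sema4c was 41.4 and 39.9 FPKM against 39.1 and 37.4 FPKM. Both are known ligands of plexin B2, and their 95% intervals of the log2 fold change were -0.23 to 0.18 for Sema4g and -0.09 to 0.26 for Sema4c. Sema4c shares 334 bases of exon with a transcript on the other strand that had at most 2.33 FPKM, and without stated strand use both values are uncertain. Sema4d, the ligand of plexin B1, was 11.5 and 9.50 FPKM in the mutants, against 13.8 and 14.7 FPKM in the wild types. The mutants lay below the wild types, with a log2 fold change of -0.43 (95% interval -0.76 to -0.10, limma adjusted p = 0.171). Sema4a, Sema4b and Sema4f averaged between 8.45 and 11.1 FPKM over the 4 libraries, with log2 fold changes of 0.04, 0.19 and -0.30. Sema4a shares 73 bases of exon with Mir7011, a microRNA of the same strand that was not analysed here, so its value is uncertain. The class sum was 130 and 128 FPKM in mutants and 128 and 134 FPKM in wild types.

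The 2 class 5 semaphorins, which carry thrombospondin repeats, moved apart without passing the test. Sema5a was 3.39 and 2.86 FPKM in the mutants, against 6.65 and 9.62 FPKM in the wild types. It lay lower in both mutants, with a difference of -1.23 on the log2 scale (95% interval -1.79 to -0.68, limma adjusted p = 0.0586), the nearest of the members to the threshold without passing it. Sema5b was 18.8 and 18.6 FPKM in mutants and 12.8 and 16.5 FPKM in wild types, a log2 fold change of 0.35 (95% interval -0.01 to 0.71). There were 5.53 and 6.48 FPKM of Sema5b for each FPKM of Sema5a in the mutants, against 1.93 and 1.72 in the wild types, while the class sum overlapped at 22.1 and 21.4 FPKM in mutants and 19.5 and 26.2 FPKM in wild types.

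Class 6 and class 7 ligands had 0 of 5 members past the limma threshold, beside 3.48% of all tested genes. At an unadjusted p under 0.05 was 1 of the 5, beside 19.5% of all tested genes. Sema6c was the most abundant semaphorin, at 88.5 and 90.3 FPKM in mutants and 80.2 and 88.2 FPKM in wild types, a log2 fold change of 0.09 (95% interval -0.09 to 0.27). Sema6d, a ligand of plexin A1, was 14.9 and 13.5 FPKM in mutants and 16.6 and 17.4 FPKM in wild types, a log2 fold change of -0.25 (limma adjusted p = 0.255). Sema6a, which binds plexins A2 and A4, was 6.08 and 7.30 FPKM in mutants and 5.63 and 6.72 FPKM in wild types, and Sema6b was 14.1 and 11.4 FPKM against 15.4 and 13.9 FPKM. Sema7a, the lipid-anchored member that binds plexin C1 and integrin beta 1, was 30.1 and 26.2 FPKM in mutants and 33.2 and 33.0 FPKM in wild types, a log2 fold change of -0.23 (limma adjusted p = 0.263).

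The neuropilins lay on opposite sides of the wild types. Nrp2, the receptor for Sema3f, was 8.54 and 7.07 FPKM in the mutant libraries, against 3.53 and 2.72 FPKM in the wild types. Both mutants lay above both wild types. The means were 7.81 ± 1.04 FPKM in mutants and 3.12 ± 0.57 FPKM in wild types (SD, n = 2 each), and Nrp2 rose by 1.20 on the log2 scale (SE 0.19, limma adjusted p = 0.0435), while the p of the authors' deposited table was 0.264. Nrp2 lies on chromosome 1 from 62703285 to 62818695, and the 2 annotated transcripts that overlap its span share no exon bases with it.

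Nrp1, the receptor for Sema3a that also binds vascular endothelial growth factor, was 27.6 and 18.9 FPKM in the mutants, against 36.6 and 41.2 FPKM in the wild types. Both mutants were lower, and they differed from each other, with a log2 fold change of -0.75 that did not pass (95% interval -1.23 to -0.27, limma adjusted p = 0.122). Nrp1 shares 80 bases of exon with Mir1903, a microRNA of the same strand that was not analysed here, so its value is uncertain. Nrp1 was the more abundant neuropilin in every library. There were 3.23 and 2.68 FPKM of Nrp1 for each FPKM of Nrp2 in the mutants, against 10.4 and 15.2 in the wild types. The sum of both was 36.1 and 26.02 FPKM in mutants and 40.1 and 44.0 FPKM in wild types.

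**Figure D3:**
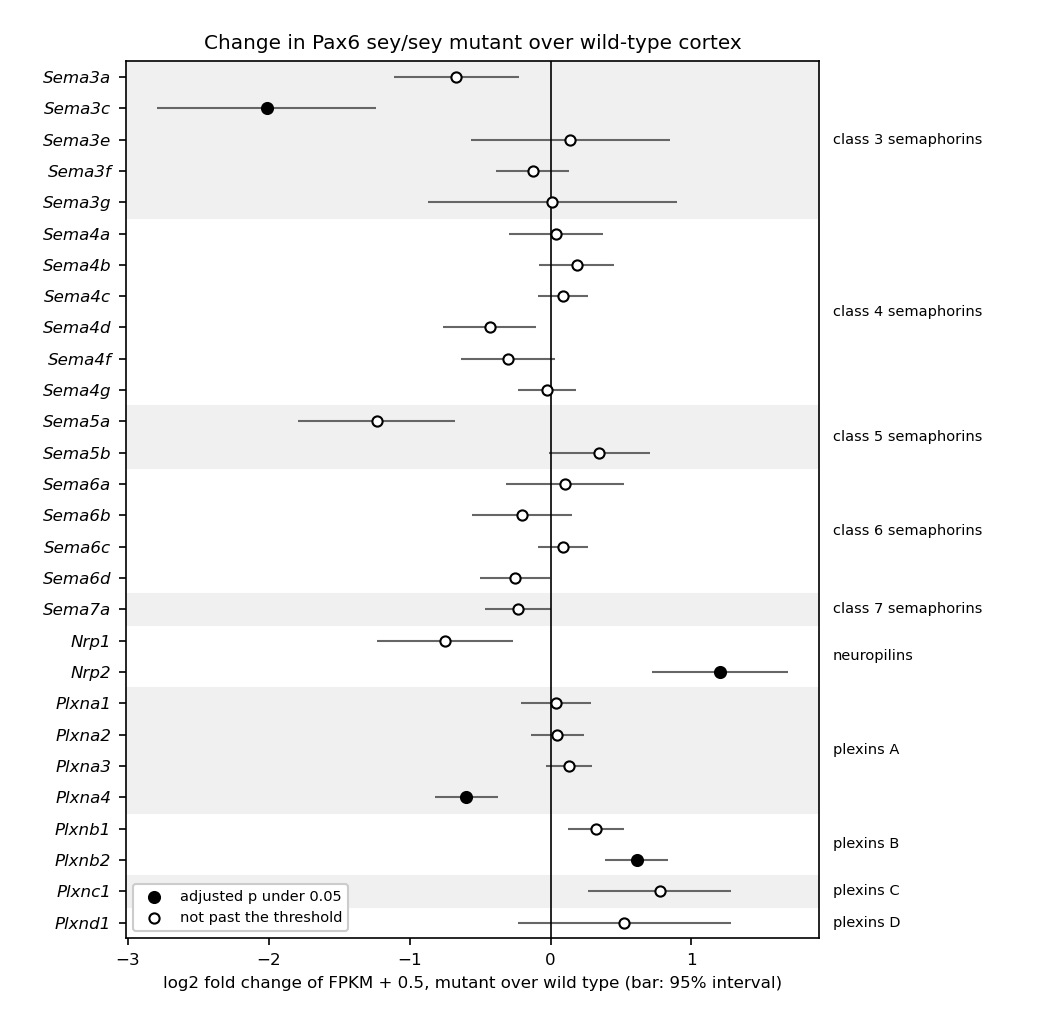
Log2 fold change (mutant over wild type, 0.5 added to each FPKM) for the 28 tested members, grouped by class. Bars are 95% intervals from the limma fit, not adjusted for the number of genes tested. The 4 filled points passed the threshold: Sema3c at -2.01, Plxna4 at -0.60, Plxnb2 at 0.61 and Nrp2 at 1.20.

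Of the type A plexins, the signalling partners of neuropilins, Plxna4 fell. The more abundant Plxna3 and Plxna2 did not pass, and neither did Plxna1. Plxna4 was 28.9 and 27.4 FPKM in the mutants, against 45.4 and 40.4 FPKM in the wild types. The libraries of each genotype lay close together and the genotypes did not overlap. The means were 28.2 ± 1.05 FPKM in mutants and 42.9 ± 3.49 FPKM in wild types (SD, n = 2 each), and Plxna4 fell by 0.60 on the log2 scale (SE 0.09, limma adjusted p = 0.0375), while the p of the authors' deposited table was 0.126. It lies on chromosome 6 from 32144268 to 32588192 on the minus strand. Its exons share 110 bases with Plxna4os3, annotated on the other strand, which was 3.33 and 2.32 FPKM in the mutants, against 11.7 and 20.4 FPKM in the wild types, and which fell by 2.28 on the log2 scale (SE 0.30, limma adjusted p = 0.0338). Strand use is not stated, so reads of these genes cannot be told apart where they overlap and both values are uncertain.

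Plxna3, the most abundant member, was 115 and 125 FPKM in mutants and 108 and 111 FPKM in wild types, a log2 fold change of 0.13 (95% interval -0.03 to 0.30). Plxna3 and Plxnb3 lie on the X chromosome, and mutant library 1, the one with Xist, held 115 FPKM of Plxna3. Plxna2 was 69.2 and 76.8 FPKM in mutants and 69.8 and 71.2 FPKM in wild types, and Plxna1 33.6 and 30.2 FPKM against 32.9 and 29.2 FPKM. Their log2 fold changes were 0.05 (95% interval -0.14 to 0.24) and 0.04 (-0.21 to 0.29). Plxna1 shares 970 bases of exon with an opposite-strand transcript listed at 0.449 FPKM or less, so both values are uncertain. The class summed to 247 and 259 FPKM in mutants and 256 and 251 FPKM in wild types, a difference of -0.62 FPKM that became 4.83 on a common column total. Plxna4 made up 11.7% and 10.6% of it in mutants and 17.7% and 16.1% in wild types.

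Of the type B plexins, Plxnb2 rose, Plxnb1 did not pass the test and Plxnb3 stayed under the filter. Plxnb2, known for its role in dividing neural progenitors and in neural tube closure, was 58.7 and 62.6 FPKM in the mutant libraries, against 37.1 and 42.0 FPKM in the wild types. The gap between genotypes was wider than that within either. The means were 60.6 ± 2.77 FPKM in mutants and 39.6 ± 3.45 FPKM in wild types (SD, n = 2 each), and Plxnb2 rose by 0.61 on the log2 scale (SE 0.09, limma adjusted p = 0.0357). The authors' deposited table gives it a ratio of 1.53 and a p of 0.0362. With Sema3c it is 1 of 2 members with a p under 0.05 in that table, of 31, where 1.83% of all genes have one. Plxnb2 lies on chromosome 15 from 89155549 to 89180788 on the minus strand, and the only annotated gene that overlaps it is a microRNA within its introns.

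Plxnb1, the receptor for Sema4d, was 44.5 and 48.8 FPKM in mutants and 37.7 and 36.6 FPKM in wild types. Both mutants were higher, with a log2 fold change of 0.32 that did not pass (95% interval 0.13 to 0.52, limma adjusted p = 0.108). It shares 257 bases of exon with an opposite-strand transcript of at most 1.75 FPKM, which makes both values uncertain. Plxnb3 was near absent, at 0.0335 and 0.0349 FPKM in mutants and 0.0869 and 0.0744 FPKM in wild types. The class summed to 103 and 111 FPKM in mutants and 74.9 and 78.7 FPKM in wild types, without overlap.

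Plxnc1, the plexin that binds Sema7a, was 8.74 and 11.3 FPKM in mutants and 6.45 and 4.85 FPKM in wild types. Both mutants lay above both wild types, with a log2 fold change of 0.77 that did not pass (95% interval 0.27 to 1.28, limma adjusted p = 0.127). It shares 115 bases of exon with an annotated transcript of the same strand that was not analysed here, so its value is uncertain. Plxnd1, the vessel plexin that binds Sema3e, was 9.12 and 10.7 FPKM in mutants and 9.16 and 4.91 FPKM in wild types, and the genotypes overlapped.

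**Figure D4:**
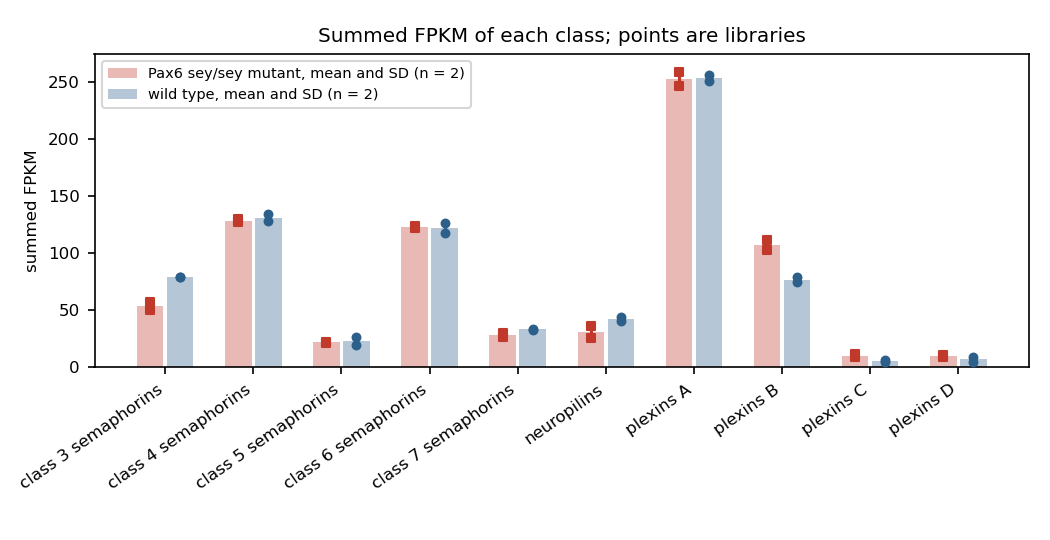
Summed FPKM of each class of ligand and receptor, with bars at the mean, error bars of 1 SD (n = 2) and a point for each library, mutants left of wild types. Plexins A form the largest pool in both genotypes, at 247 to 259 FPKM in the mutants and 251 to 256 FPKM in the wild types. The libraries of the genotypes do not overlap for class 3 and class 7 semaphorins, neuropilins, plexins B and plexins C. Class 7 and plexins C are 1 gene each, and 51.6% of all tested genes do not overlap either.

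In every library Plxna3 was the highest member, followed by Sema6c and Plxna2, while Plxnb2, Sema4g, Plxnb1, Sema3f, Sema4c and Plxna4 averaged 35.5 to 50.1 FPKM over the 4 libraries. The ranges of Plxna3, Sema6c and Plxna2 over the 4 libraries did not overlap, while those of neighbours among the other 6 did. The ends of it shifted between genotypes: there were 2.03 and 2.28 FPKM of Plxnb2 for each FPKM of Plxna4 in the mutants, against 0.818 and 1.04 in the wild types. The 4 scarcest, Plxnb3, Sema3d, Sema3b and Sema3g, averaged 0.0574 to 0.552 FPKM.

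Co-receptors and intracellular partners of semaphorin signalling were examined as a list of 43 genes, all tested. Of these 1 rose and 0 fell in limma, beside 3.48% of all genes, and 11 had an unadjusted p under 0.05, 4 higher and 7 lower, beside 19.5% of all genes. The median log2 fold change was -0.05. Rnd3, known for its role in the migration of cortical neurons, was 81.4 and 94.3 FPKM in the mutants, against 27.7 and 27.4 FPKM in the wild types, and rose by 1.65 (SE 0.09, limma adjusted p = 0.00515). The 4 genes that follow had the lowest p of the partners without a call and were chosen after their values were seen. Rnd2, its relative, was 40.9 and 30.5 FPKM in mutants and 60.6 and 73.7 FPKM in wild types, without overlap and with a change of -0.91 that did not pass (limma adjusted p = 0.0646). L1cam, a co-receptor of neuropilin 1, was 120 and 110 FPKM in mutants and 148 and 155 FPKM in wild types (log2 fold change -0.40, limma adjusted p = 0.0531). Ranbp9, a scaffold protein, was 28.6 and 30.2 FPKM in mutants and 22.5 and 21.6 FPKM in wild types (log2 fold change 0.41, limma adjusted p = 0.0691). Nrcam, a partner of neuropilin 2, was 27.4 and 26.3 FPKM in mutants and 33.7 and 36.6 FPKM in wild types (-0.38, limma adjusted p = 0.0819).

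**Figure D5:**
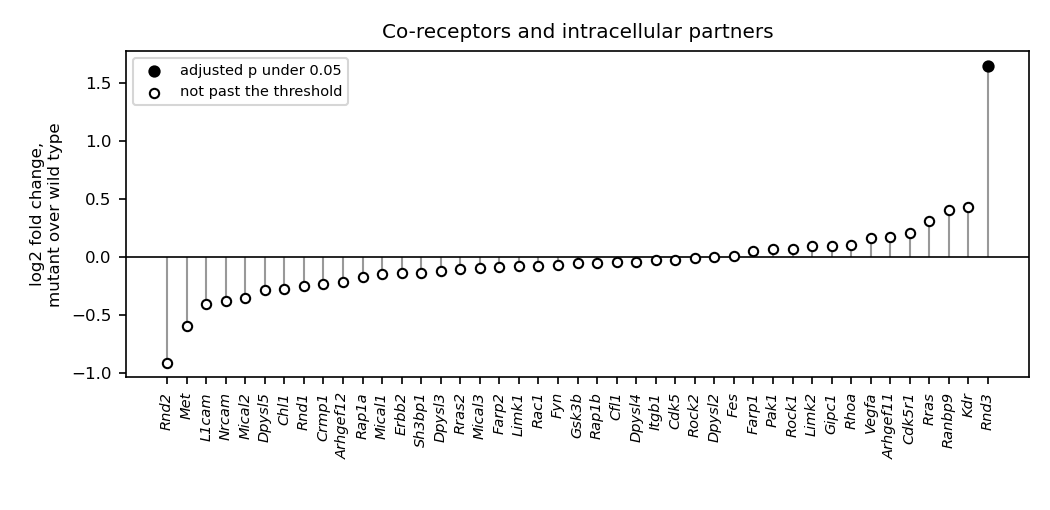
Log2 fold change (mutant over wild type, 0.5 added to each FPKM) for the 43 co-receptors and partners in order of size. The filled point, Rnd3 at 1.65, is the gene that passed the threshold, and Rnd2 lies lowest at -0.91.

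Markers of some cortical cell types also differed between the genotypes. GABAergic interneuron markers were higher in the mutants, with 13 of 15 risen beside 2.02% of all tested genes. Their summed levels were 1025 and 1126 FPKM in mutants against 369 and 279 FPKM in wild types. Glutamatergic neuron markers were lower, with 7 of 11 fallen beside 1.46% of all tested genes. Their sums were 871 and 813 FPKM in mutants against 1348 and 1433 FPKM in wild types. Of 12 progenitor markers 4 rose, Mki67, Top2a, Sox2 and Pax6, the last being the mutated gene itself, and 2 fell, Eomes and Neurog2. Their sums, Pax6 included, were 1024 and 1071 FPKM in mutants and 1081 and 949 FPKM in wild types. Of 15 endothelial and pericyte markers 14 were tested and 0 passed in limma, beside 3.48% of all tested genes. At an unadjusted p under 0.05 were 4 of the 14, all higher. Among all tested genes 19.5% had such a p in either direction. Both shares are to be set beside the lists that follow also. The endothelial and pericyte sums were 124 and 99.3 FPKM in mutants and 88.2 and 83.9 FPKM in wild types. Of 11 meningeal markers 8 were tested and 0 passed, with 4 higher at an unadjusted p under 0.05, and sums of 66.3 and 33.8 FPKM in mutants and 19.6 and 16.2 FPKM in wild types. Microglia markers summed to 24.3 and 20.5 FPKM in mutants and 23.3 and 26.9 FPKM in wild types. Oligodendrocyte precursor markers summed to 30.6 and 23.1 FPKM in mutants and 32.7 and 16.3 FPKM in wild types. All 8 microglia markers and 6 of the 7 oligodendrocyte precursor markers were tested, and 0 passed in limma in either list. At an unadjusted p under 0.05, 2 of the 8 and 1 of the 6 were lower and 0 were higher. None of these markers was at 0 in all 4 libraries. The part of these cell types in the changes of Sema3c, Plxna4, Nrp2 and Plxnb2 was not tested.

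The 4 calls stood close to the threshold and rest on 2 libraries a group. Without mutant library 1, mutant library 2, wild-type library 1 or wild-type library 2, in this order, the limma adjusted p of Sema3c was 0.0383, 0.0803, 0.225 and 0.231, of Nrp2 0.172, 0.175, 0.168 and 0.219, of Plxna4 0.126, 0.189, 0.196 and 0.179, and of Plxnb2 0.122, 0.189, 0.185 and 0.179. The log2 fold changes kept their direction in all of these fits, between -2.46 and -1.57 for Sema3c, 1.04 and 1.36 for Nrp2, -0.68 and -0.51 for Plxna4 and 0.52 and 0.70 for Plxnb2. Each such fit leaves 1 library in a group, which is assumed to vary like the other group. Plxna4os3 kept its direction but missed the threshold with the replicate number as a block (adjusted p = 0.0518), without a filter on low values (0.0886), without the trend (0.0928) and without any 1 library (0.108 to 0.179). Without wild-type library 1 or 2 the limma adjusted p of Rnd3 was 0.0818 or 0.0904. All 4 members also missed the threshold without a filter on low values, at adjusted p = 0.0846 to 0.111, and without the mean-variance trend in limma, at 0.0900 to 0.117.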

How the data were processed

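RNA of E16.5 cortex was sequenced in 2 Pax6 sey/sey and 2 wild-type libraries. The authors deposited 1 table of FPKM values per gene and library, per the file headers, with their own group FPKM, fold (a ratio of mutant to wild type) and p-value, whose test is not stated. Tools named in the submitters' processing notes, without roles, are TopHat2 2.0.9, Cufflinks 2.2.1 and edgeR, with the builds GRCm38.p4 and mm10. RNA selection, strand use and scaling between libraries are not given in the sources used here, and FPKM keeps no fragment counts, so depth is known in relative terms only.

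Symbols were matched by Ensembl identifier for 22599 of 22770 genes, since 25 names had become dates. Coordinates come from GENCODE M21 on GRCm38, counted from 1. Genes with 0.5 FPKM in 2 libraries (15399) were fitted on log2(FPKM + 0.5) with limma 3.58.1 in R 4.3.3 (mean-variance trend, 3.05 prior degrees of freedom), adjusting p by Benjamini-Hochberg over all of them and a threshold of 0.05. Relative depth was the most frequent ratio to wild-type library 1 among genes under 0.15 FPKM times kilobases. Class sums were compared by exact permutation. Members and lists were chosen with earlier results of these data known. Given in full by rule were called members, members with an unadjusted p under 0.05, and the 2 most abundant others in each group of classes. The other members are given more briefly, and partners are named where called, with the 4 of lowest p among the rest added after their values were seen. Alternatives were other pseudocounts (0.1 and 1), filters, scalings, a replicate block and leaving out each library.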

Additional observations from a re-analysis of the deposited data

How the results depend on the processing

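The count of 4 changed members and the direction of each held with pseudocounts of 0.1 and 1, a filter of 1 FPKM, a common median, quantile normalization and the replicate number as a block. With no filter on low values limma called 61 genes and 0 members (11 with an unadjusted p under 0.05), and without the trend 54 genes and 0 members (10 unadjusted). Leaving out 1 library, with the same 15399 genes tested, gave 7 to 59 genes, 0 to 1 members (7 to 13 unadjusted) and 0 to 1 partners (6 to 8 unadjusted). With a filter of 1 FPKM 2 partners passed, Rnd3 and L1cam (adjusted p = 0.0495). The causes were not tested.

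Without 1 library the log2 fold change of Plxna2 ran from -0.027 to 0.123 and that of Sema4g from -0.099 to 0.051, and neither passed the test in any fit. The mutant minus wild-type difference of summed FPKM ran from -5.41 to 0.430 for class 4, -4.39 to 2.32 for class 5 and -3.29 to 5.21 for class 6 semaphorins and from -6.74 to 5.50 for plexins A, so no direction holds for these sums. For plexins A it was 4.83 on a common column total (TPM). The sums of the other classes kept their direction.

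The labels give replicate numbers 1 and 2 in each genotype but tie them to no litter. Same-numbered libraries correlated at 0.05 in their deviations from the group means over 15399 genes, so they share a number and no shown pairing. With the number as a block limma called 374 genes against 536, 4 members and 1 partner.

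FPKM keeps no fragment counts, so no counting interval can be given, and Plxnb3 lay below the level of about 1 fragment per kb of exon in every library. With 2 libraries a group, a member without a call can still differ.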
